A study of Mus musculus with 8 samples.

Results

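Adipose tissue runs along the gut in the mesentery, and its cells are not part of the intestinal wall's epithelium. An adipocyte stores triglyceride in 1 large droplet coated with perilipins, takes up fatty acids released from lipoproteins, and secretes hormones and complement proteins into the blood. The results below follow 10 genes of such cells in RNA from intestinal tissue: Adipoq, Lep, Retn and Cfd, which encode secreted products, Plin1, Plin4 and Cidec, which encode proteins of the lipid droplet, and Lpl, Fabp4 and Car3, which encode a lipase, a fatty acid carrier and a carbonic anhydrase. They were taken by name from a count table of 23282 lines, in which each of the 10 had exactly 1 line. They were chosen with their levels in all libraries already known, so those levels, and the fold changes made from them, are given as a description with no test.

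All mice were wild type C57BL/6, and 8 libraries fall into 4 groups of 2. The group labelled NC had buffer by gavage and no dextran sodium sulfate (DSS), a polysaccharide that injures the colon lining. PC had buffer and then 3% DSS in the drinking water for 6 days. Ex had 1 mg of bovine colostrum exosomes, membrane vesicles secreted into milk, each day for 3 weeks and no DSS, and ExDSS had the exosomes and then DSS. Libraries were made with a kit that reads the 3′ ends of transcripts. No source used here gives the stretch of gut, the age or the sex. The labels do not tell whether a pair of libraries stems from different mice, so any p-value measures the spread between libraries, which may be technical. In bulk tissue, fewer adipocytes and less RNA per adipocyte cannot be told apart.

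Several libraries stand apart, and some go against their labels. Totals were between 8813622 and 12308537 counts in 7 libraries and 1163147 in Ex 2, where the ribosomal precursor Rn45s held 53.5% of the counts. A list of 18 pancreatic acinar genes held 9.62% of NC 2 and 21.5% of ExDSS 1, against at most 0.284% elsewhere. A list of 8 neutrophil genes, which colitis usually raises, summed to between 1860 and 3140 CPM (CPM is a gene's count scaled by the library total) in NC and ExDSS and to between 4.30 and 16 CPM in PC and Ex. Each group is therefore called here by its label only, and pairs of values are given in the order of library 1 and library 2. All 9 genes of an intestinal epithelium list had counts in every library, with sums of 3440 to 12000 CPM in 7 libraries but 39.5 CPM in Ex 2. Detection of low genes also differed. Of 5065 genes with 0.5 to 10 CPM in both PC libraries, the share with no count was 2.76% for NC 1 and 1.24% for Ex 1, but 36.1% for NC 2, 66.1% for Ex 2, and 63.1% and 45.1% for the ExDSS pair.

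The promoters of 3 members are shown because these genes separate in the results below: Adipoq had at least 253 counts in 6 libraries, while Lep and Plin1 had at most 3 counts in 5. Each is the 250 bases before the annotated start, from RefSeq on GRCm38.p6, at chr16:23146286-23146535 on the plus strand for Adipoq, chr6:29059971-29060220 on the plus strand for Lep and chr7:79732777-79733026 on the minus strand for Plin1. Capitals mark the motifs found.
Adipoq: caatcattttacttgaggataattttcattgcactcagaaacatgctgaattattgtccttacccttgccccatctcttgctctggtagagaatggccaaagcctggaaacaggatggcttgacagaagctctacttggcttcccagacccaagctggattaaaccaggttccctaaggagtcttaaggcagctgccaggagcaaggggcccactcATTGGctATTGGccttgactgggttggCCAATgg
Lep: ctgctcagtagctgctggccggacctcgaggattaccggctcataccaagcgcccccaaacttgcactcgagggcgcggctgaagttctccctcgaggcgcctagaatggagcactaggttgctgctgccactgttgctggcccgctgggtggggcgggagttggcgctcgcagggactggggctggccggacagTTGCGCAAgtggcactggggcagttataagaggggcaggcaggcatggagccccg
Plin1: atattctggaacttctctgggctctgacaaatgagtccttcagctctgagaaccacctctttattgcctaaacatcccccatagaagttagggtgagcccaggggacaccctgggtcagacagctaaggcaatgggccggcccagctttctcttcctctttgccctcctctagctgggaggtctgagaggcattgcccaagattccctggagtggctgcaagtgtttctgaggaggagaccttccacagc

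The RefSeq promoter table held 8 windows for 7 of the 10 members, which were searched on both strands. TTGCGCAA, a palindrome bound by C/EBP factors, began 55 bases before the Lep start, and 0.164% of all 32851 windows hold it. CCAAT was found 3 times in the Adipoq window and once in that of Plin4 (33.8% of all windows hold it). None of the 8 windows held AGGTCA, the single site of nuclear receptors (14.0% of all windows), the PPAR/RXR direct repeat made of such sites (0.0335%) or the TATA box TATAAA (12.4%). A match is a description of these letters only.

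Summed over the 10 genes, the adipocyte signal differed widely between the libraries of NC, Ex and ExDSS and little between those of PC. It was 440.6 CPM in NC 1 and 71.7 CPM in NC 2, 618.8 CPM in PC 1 and 681.0 CPM in PC 2, 2311 CPM in Ex 1 and 9.46 CPM in Ex 2, and 189.4 CPM in ExDSS 1 and 2876 CPM in ExDSS 2. The exact 95% interval was 2279 to 2343 CPM in Ex 1 and 4.72 to 16.9 CPM in Ex 2, from 20366 and 11 counts. Such intervals cover counting error only. The libraries of a group differed 1.10-fold in PC, 6.15-fold in NC, 15.2-fold in ExDSS and 244-fold in Ex. Group means were 256 ± 261 CPM in NC, 650 ± 44.0 CPM in PC, 1160 ± 1630 CPM in Ex and 1530 ± 1900 CPM in ExDSS (SD, n = 2), and outside PC the SD was larger than the mean. Of the 10 genes, 6 were highest in Ex 1 (Adipoq, Car3, Plin1, Fabp4, Lep and Lpl) and 4 in ExDSS 2 (Cfd, Plin4, Cidec and Retn).

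**Figure D1:**
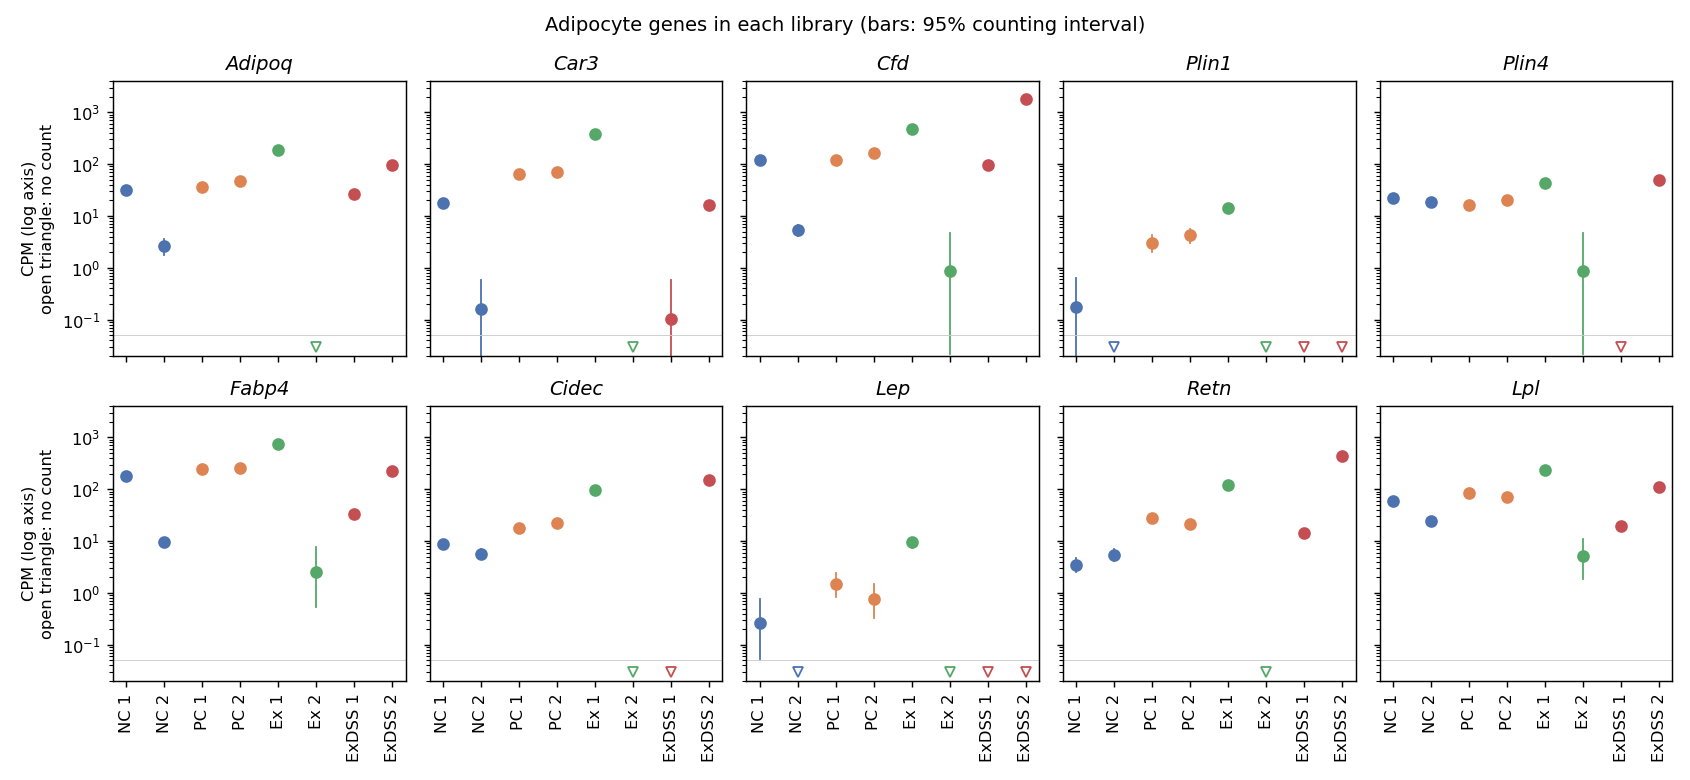
CPM of each of the 10 adipocyte genes (log axis) in the 8 libraries, coloured by group, with exact 95% counting intervals and open triangles where a library had no count. Ex 1 and ExDSS 2 are high for most genes, Ex 2 is low for all, and Plin1 and Lep have no count in NC 2, Ex 2, ExDSS 1 and ExDSS 2.

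Among the secreted products, Adipoq encodes adiponectin, a hormone made almost only by adipocytes that raises insulin sensitivity (chromosome 16, 23146536 to 23157968, GRCm38). It stood at 31.7 and 2.60 CPM in the NC pair, 35.6 and 48.0 in the PC pair, 188 and 0 in the Ex pair, and 26.2 and 97.2 in the ExDSS pair. The PC libraries lay above both NC libraries, by a small margin over NC 1, while the Ex libraries spanned the whole range.

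Lep encodes leptin, which adipocytes release in proportion to their fat store (chromosome 6, 29060221 to 29073876). The Lep counts were 3 for NC 1, 15 and 8 for the PC pair, 83 for Ex 1 and 0 for the other 4 libraries, which gives 0.263, 1.48, 0.768 and 9.42 CPM where it was found. For a count of 0, the exact 95% upper limit was 0.300 CPM in NC 2, 0.382 CPM in ExDSS 1 and 0.341 CPM in ExDSS 2, but 3.17 CPM in Ex 2, so a level such as that of PC was not detectable in Ex 2.

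Retn encodes resistin, a hormone of mouse fat that opposes insulin (chromosome 8, 3655770 to 3659818). It stood at 3.51 and 5.44 CPM in the NC pair, 27.9 and 21.3 in the PC pair, 122 and 0 in the Ex pair, and 14.1 and 447 in the ExDSS pair. NC was below PC with no overlap, and ExDSS 2 stood above every other library.

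Cfd encodes adipsin, complement factor D, the protease that starts the alternative complement pathway (chromosome 10, 79890853 to 79892660). It stood at 119 and 5.28 CPM in the NC pair, 121 and 161 in the PC pair, 473 and 0.860 in the Ex pair, and 96.7 and 1780 in the ExDSS pair. NC 1 and PC 1 differed by less than their counting intervals. The value of ExDSS 2 came from 19259 counts.

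Of the lipid droplet genes, Plin1 encodes perilipin 1, which coats the droplet of white adipocytes and holds back lipolysis (chromosome 7, 79721164 to 79732776). The Plin1 counts were 2 for NC 1, 30 and 44 for the PC pair, 125 for Ex 1 and 0 for the other 4 libraries, which gives 0.175, 2.95, 4.23 and 14.2 CPM where it was found. Pooled over the 2 libraries of a group, Plin1 was 42.7-fold higher in PC than in NC, with a counting interval of 11.4 to 359. It was at least 12.2-fold lower in ExDSS than in PC (at least 10-fold against PC 1 and 14.4-fold against PC 2), set against a floor of 3 counts per library.

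Cidec encodes a protein that fuses droplets into a single large one (chromosome 6, 113424634 to 113435760). It stood at 8.77 and 5.69 CPM in the NC pair, 18.3 and 22.1 in the PC pair, 96.2 and 0 in the Ex pair, and 0 and 152 in the ExDSS pair. The ExDSS libraries thus held the highest and the joint lowest value.

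Plin4 encodes perilipin 4, found on small nascent droplets (chromosome 17, 56100591 to 56109802). It stood at 22.1 and 18.9 CPM in the NC pair, 16 and 20.4 in the PC pair, 42.5 and 0.860 in the Ex pair, and 0 and 48.3 in the ExDSS pair. It was the 1 member whose NC and PC values overlapped. Its 3′ end overlaps that of Hdgfrp2 on the other strand by 14 bases, and no source used here tells if strand entered the counting, so reads may be shared. Hdgfrp2, a chromatin reader gene, stood at 44.8 and 32.8 CPM in the NC pair, 22.6 and 26.6 in the PC pair, 33.2 and 1.72 in the Ex pair, and 0 and 43.9 in the ExDSS pair. Like Plin4 it was at 0 in ExDSS 1 and close to 0 in Ex 2. Its part in the Plin4 values was not tested.

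Of the genes for lipid uptake and metabolism, Fabp4 encodes the fatty acid carrier of adipocytes, which capillary endothelium and macrophages also express (chromosome 3, 10204343 to 10208576). It stood at 178 and 9.51 CPM in the NC pair, 247 and 261 in the PC pair, 748 and 2.58 in the Ex pair, and 33.0 and 221 in the ExDSS pair. PC lay above NC and above ExDSS with no overlap.

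Lpl encodes lipoprotein lipase, which frees fatty acids from circulating triglyceride and is also made by macrophages (chromosome 8, 68880555 to 68906932). It stood at 58.8 and 24.0 CPM in the NC pair, 84.8 and 70.6 in the PC pair, 236 and 5.16 in the Ex pair, and 19.3 and 113 in the ExDSS pair. Its 5.16 CPM in Ex 2 rest on 6 counts, the most of any member in that library.

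Car3 encodes carbonic anhydrase 3, one of the most abundant proteins of mouse fat and also present in muscle (chromosome 3, 14863538 to 14872373). It stood at 18.1 and 0.162 CPM in the NC pair, 64.1 and 71.7 in the PC pair, 380 and 0 in the Ex pair, and 0.104 and 16.5 in the ExDSS pair. Every NC and ExDSS value was below every PC value. The muscle marker Ckm was at 59.4 CPM in ExDSS 1, where Car3 had 1 count, at 8.17 CPM in Ex 1, where Car3 was highest, and at 0 in ExDSS 2. Acta1, another muscle gene, went the other way, at 3.52 CPM in ExDSS 1, 4.54 CPM in Ex 1 and 40.2 CPM in ExDSS 2. The part of muscle in the Car3 values was not tested.

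Counting against Adipoq within a library removes differences in the amount of fat that scale all members alike. In PC 1, PC 2 and Ex 1 these ratios were close for Plin1 and Cidec although the sum was far higher in Ex 1. Plin1 had 8.29, 8.80 and 7.53 counts per 100 Adipoq counts there, with counting intervals that overlap (5.51 to 12, 6.31 to 12 and 6.23 to 9.04), and Cidec had 51.4, 46.0 and 51.1. For Cfd, Fabp4 and Plin4 the interval of Ex 1 lay below those of both PC libraries. For Cfd it was 237 to 266 in Ex 1, against 302 to 383 in PC 1 and 302 to 370 in PC 2. Ex 1 exceeded both PC libraries in 10 of 10 members (21.4% of all genes tested did so), by a median of 4.22 times the PC mean and between 2.34 (Plin4) and 8.39 times (Lep). All members were higher in Ex 1, by unequal factors.

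Outside PC 1, PC 2 and Ex 1, whether a ratio was kept depended on the gene. Cfd had 376 counts per 100 Adipoq counts in NC 1 and 369 in ExDSS 1, near the 340 of PC 1 and the 334 of PC 2. Plin1 had 0.554 counts per 100 Adipoq counts in NC 1 (interval 0.0668 to 2.02), that is 2 counts where the ratio of Ex 1 would give 27.2. In ExDSS 2 it had 0 beside 1051 Adipoq counts, which allows at most 0.352 per 100, where the ratio of Ex 1 would give 79.1 counts. In ExDSS 1 it had 0 beside 253 (at most 1.47 per 100). Of genes at this level in PC, 2.76% had no count in NC 1, but 45.1% had none in ExDSS 2 and 63.1% in ExDSS 1, so a 0 there is common among genes as low as Plin1 and Lep. NC 2 had only 32 Adipoq counts, and its limit of 12.2 per 100 covers the PC values.

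Lep had fewer counts per Adipoq count in NC 1 than in Ex 1, with intervals that do not overlap. It had 0.831 counts per 100 Adipoq counts in NC 1 (interval 0.171 to 2.45), 4.14 in PC 1 (2.30 to 6.93), 1.60 in PC 2 (0.687 to 3.18) and 5 in Ex 1 (3.96 to 6.24). The interval of NC 1 overlaps those of both PC libraries, so no difference from them was detectable at this depth. In ExDSS 2 no Lep count stood where the ratio of Ex 1 would give 52.5.

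Car3 also differed from library to library. It had 180 counts per 100 Adipoq counts in PC 1, 149 in PC 2 and 202 in Ex 1, against 57.1 in NC 1 (interval 47.9 to 67.9), 16.9 in ExDSS 2 (14.4 to 19.9), 6.25 in NC 2 (0.726 to 24.5) and 0.395 in ExDSS 1 (0.00997 to 2.22). The intervals of the first 3 and of the last 4 libraries do not overlap. Fabp4 did not separate the libraries in this way. It had 692, 544 and 397 per 100 Adipoq counts in PC 1, PC 2 and Ex 1. It had 563 in NC 1 (503 to 632) and 366 in NC 2 (245 to 559), against 227 in ExDSS 2 and 126 in ExDSS 1.

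Cfd and Retn went the other way in ExDSS 2. Cfd had 1830 counts per 100 Adipoq counts there (interval 1720 to 1950), against 203 to 376 in the 6 other libraries with Adipoq counts. Retn had 460 (430 to 492), against 78.2 in PC 1, 44.4 in PC 2, 64.8 in Ex 1, 53.8 in ExDSS 1 and 11.1 in NC 1, and 209 in NC 2 from 67 Retn counts. Cidec had 156 in ExDSS 2 (145 to 169), above the 27.7 to 51.4 of NC 1, PC 1, PC 2 and Ex 1, but 219 in NC 2 (142 to 344) and 0 in ExDSS 1. The high sum of ExDSS 2 therefore came mostly from Cfd, at 61.9% of the members' counts against 20.5% in Ex 1, and from Retn, at 15.5% against 5.28%, while Fabp4 held 7.69% there against 32.4% in Ex 1 and Car3 0.572% against 16.5%. Macrophage genes, 11 in all, summed to 3870 CPM in ExDSS 2 and to 10.3 to 2290 CPM elsewhere, and their part in this was not tested.

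**Figure D2:**
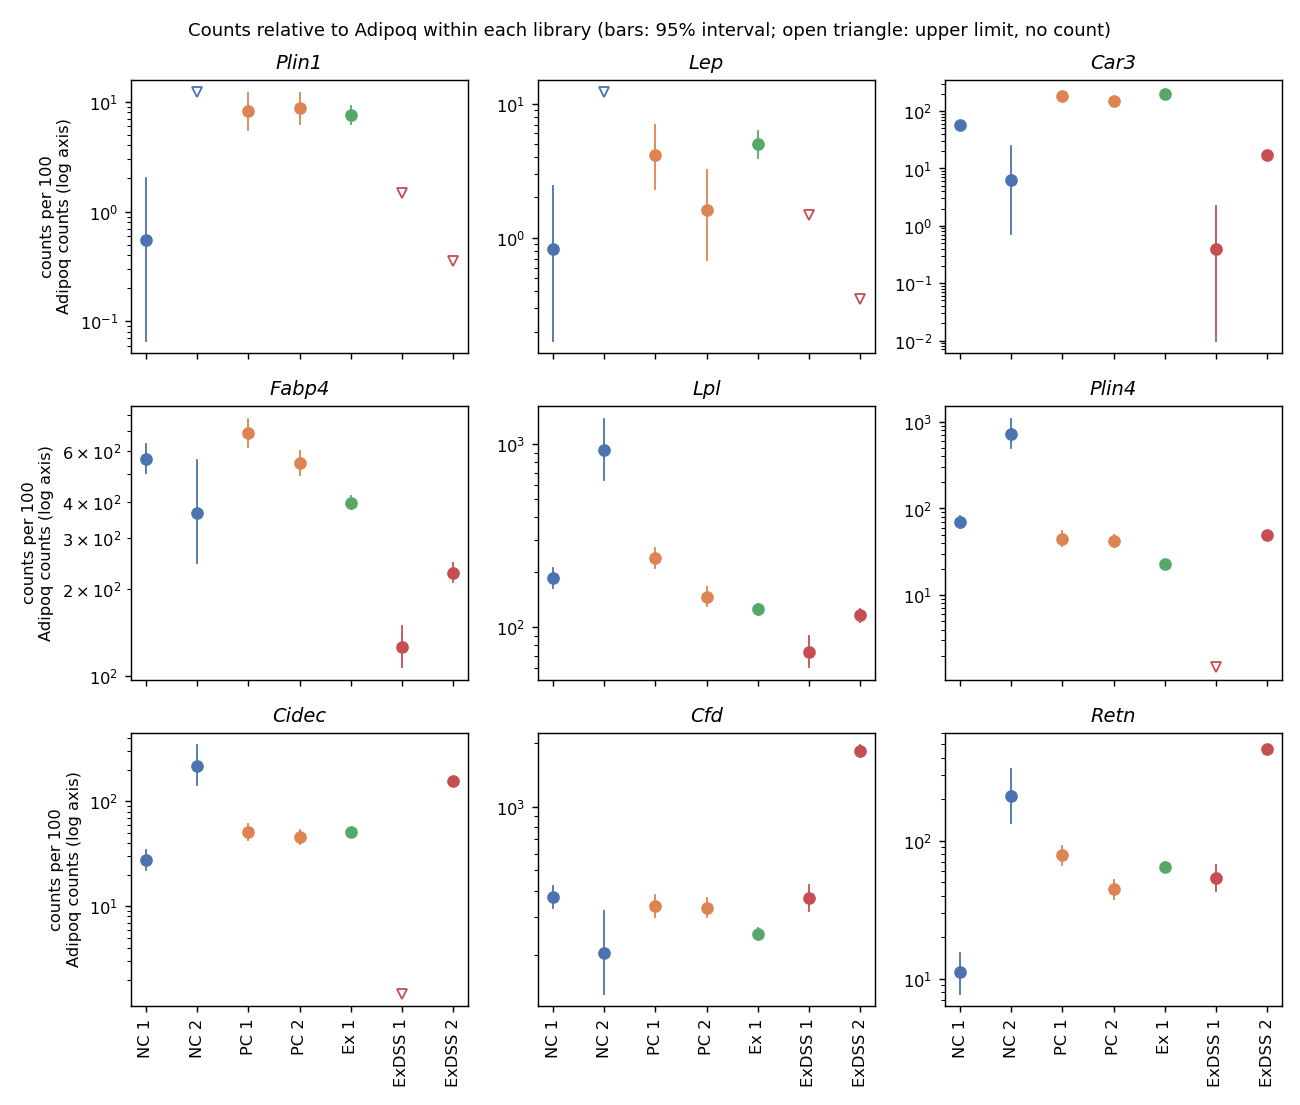
Counts of 9 adipocyte genes per 100 Adipoq counts (log axes, a separate scale in each panel) in the 7 libraries with Adipoq counts, with 95% counting intervals and upper limits (open triangles) where there was no count. PC 1, PC 2 and Ex 1 lie close together for Plin1 and Cidec and above the others for Car3. ExDSS 2 has no count for Plin1 and Lep, and it is highest for Cfd and Retn.

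**Figure D3:**
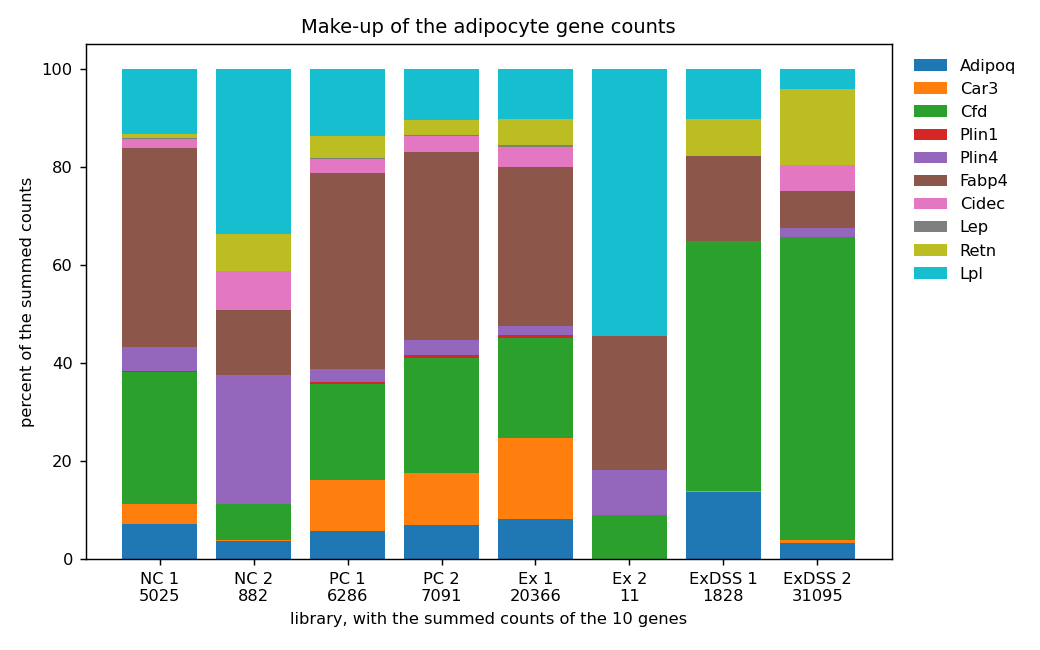
Percent of the summed counts of the 10 adipocyte genes held by each gene in each library, with the summed counts under the labels. Cfd holds 61.9% in ExDSS 2 and 51.0% in ExDSS 1, against 19.6% to 27.0% in NC 1, PC 1, PC 2 and Ex 1; the bar of Ex 2 rests on 11 counts.

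The comparison of PC with NC asks what DSS does without exosomes. Of the 10 members, 9 had a positive log2 fold change and Plin4 had -0.45, with a median of 1.36 beside 0.10 for all 14567 genes tested. Car3 was at 2.93, Retn at 2.07 and Fabp4 at 1.44. In 9 of 10 members both PC libraries lay above both NC libraries, as did 33% of all genes, and in none was PC below NC without overlap (19.1% of genes). Set against NC 1 alone it was again 9 of 10, beside 39.8% of all genes. Without NC 1 the median was 3.79, and without NC 2, the library with acinar RNA, it was 0.91. All 10 members passed the filter on low counts. edgeR's quasi-likelihood test called 0 of 10 members and 0% of all genes at an adjusted p under 0.05, 0 of 10 members at an unadjusted p under 0.05 (0.686% of genes higher and 1.81% lower), limma-voom called 0 of 10 (0.0137% of genes), and DESeq2 0 of the 8 members to which it gave an adjusted p (0.856% of genes). The members were chosen on these values, so nothing is read from these counts.

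ExDSS against PC asks, by the labels, what exosomes given before DSS change. The median of the members was 0.35, beside -0.51 for all genes, and it covers values in both directions: Retn had a log2 fold change of 3.48, Cfd 2.98, Cidec 2.12 and Adipoq 0.90, while Car3 had -2.81 and Fabp4 -0.70. Lpl, at 0.09, was negative with scaling by total counts. Car3, Plin1, Fabp4 and Lep were lower in both ExDSS libraries than in both PC libraries, 4 of 10 beside 51.9% of all genes, and no member was higher without overlap (13.7% of genes). Lep was at least 3.82-fold lower in ExDSS (at least 5.02-fold against PC 1 and 2.61-fold against PC 2). Without ExDSS 2 the median was -4.16, and without ExDSS 1 it was 1.08. edgeR called 0 of 10 members (0% of genes), with Plin1 alone at an unadjusted p under 0.05 (16.1% of genes lower and 2.84% higher), and DESeq2 (10.9% of genes) and limma-voom (7.67%) called 0 of 10.

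Ex against NC asks, by the labels, what exosomes do without DSS, and it shares the NC libraries with the first comparison. All 10 fold changes were positive, from 0.07 for Plin4 to 4.63 for Car3 among the members with more than 3 counts in NC, with a median of 2.69 beside -0.27 for all genes. Pooled counts put Lep 65.8-fold (interval 21.7 to 325) and Plin1 149-fold (40.3 to 1240) higher in Ex, with all of these Ex counts in Ex 1. No member separated the groups (6.72% of all genes were higher and 24.5% lower without overlap). None was higher in Ex 2 than in NC 1, while Ex 1 lay above both NC libraries in 10 of 10 members (32.4% of all genes). For Plin1 and Lep, the NC 1 levels are below what Ex 2 could detect. Without Ex 1 all 10 signs turned and the median was -4.65. Ex 2 then stood alone for Ex, with no count for 6 of 10 members, so this median is no bound. The median was 3.71 without Ex 2 and 4.87 without NC 1. edgeR called 0 of 10 members (0% of genes), with Car3 and Plin1 at an unadjusted p under 0.05 (2.89% of genes higher and 2.42% lower), limma-voom called 0 of 10 (0% of genes), and DESeq2 0 of the 8 members to which it gave an adjusted p (3.55% of genes).

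ExDSS against Ex asks, by the labels, what DSS does after exosomes, and shares libraries with both comparisons above. The median was -0.64, beside -0.29 for all genes, with 4 members positive and 6 negative. Cfd had 2.02 and Retn 1.92, against -4.51 for Car3 and -1.48 for Fabp4. Plin4, at 0.10, was negative with upper-quartile scaling. No member separated the groups (15.2% of genes were higher and 15.8% lower without overlap). Without Ex 1 the median was 7.10, and Adipoq, Car3, Fabp4 and Lpl turned from negative to positive. Plin1 and Lep then had no count in any library compared. Ex 2 stood alone for Ex, with no count for 6 of 10 members, so this median depends on how counts of 0 are treated. The median was -1.58 without Ex 2, -0.05 without ExDSS 1 and -5.76 without ExDSS 2. edgeR called 0 of 10 (0% of genes), with Car3, Plin1 and Lep lower at an unadjusted p under 0.05 (16.2% of genes lower and 3.55% higher). Plin1 was at least 48.2-fold and Lep at least 32-fold lower in ExDSS than in Ex 1, while both had no count in Ex 2, against which no fold can be given. DESeq2 called Plin1 (14.6% of genes called) and limma-voom 0 of 10 (2.89%).

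The interaction, the DSS difference with exosomes minus that without, had a median of -1.64 over the members beside -0.58 for all genes, with 2 positive (Cfd 0.82 and Plin4 0.55). Both turned negative without Ex 2 and without ExDSS 2, Cfd also without NC 1 and Plin4 also with limma-voom. Retn turned positive without NC 1 and with limma-voom. The median was 5.35 without Ex 1, -7.33 without ExDSS 2 and -2.98 without NC 1. As above, the value without Ex 1 depends on how counts of 0 are treated. edgeR called 0 of 10 beside 0.288% of genes, with Car3, Plin1 and Lep lower at an unadjusted p under 0.05 (13% of genes lower and 5.86% higher). DESeq2 called Plin1 (12.2% of genes) and limma-voom 0 of 10 (0.632%).

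**Figure D4:**
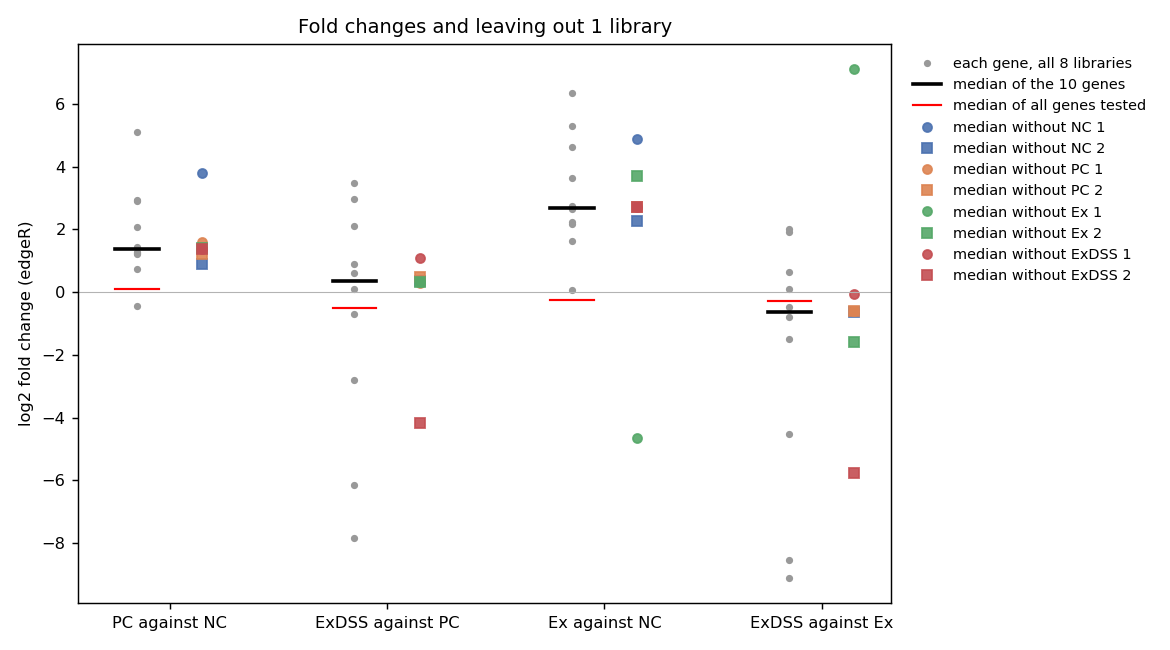
log2 fold change of each of the 10 adipocyte genes in 4 comparisons (grey points), their median (black line), the median of all genes tested (red line) and the members' median when 1 library is left out (coloured symbols). Leaving out Ex 1 moves the median from 2.69 to -4.65 for Ex against NC and from -0.64 to 7.10 for ExDSS against Ex. Ex 2 then stands alone for Ex, with no count for 6 of the 10 genes, so these medians are no bounds.

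Other genes of fat cells were taken from lists, and of each the 3 with the highest mean level are named, besides Adrb3, Adig, Angptl4, Plin5, Srebf1, Mlxipl and Ucp1, which were chosen after their values were seen. Among 11 genes of adipocyte identity and hormone response, 10 passed the filter, and their medians were 0.43 for PC against NC, -0.67 for ExDSS against PC, 0.31 for Ex against NC and -1.04 for ExDSS against Ex. Pparg, the master regulator of adipocytes, which colon epithelium also expresses strongly, stood at 75.6 and 0 CPM in the NC pair, 151 and 86.3 in the PC pair, 78.5 and 0 in the Ex pair, and 0 in both ExDSS libraries. It was at least 403-fold lower in ExDSS than in PC (at least 513-fold against PC 1 and 294-fold against PC 2; edgeR adjusted p = 0.228). Its PC values lie on either side of 100 CPM. Of 6313 genes with 10 to 100 CPM in both PC libraries, the share with no count was 3.33% for NC 2, 31.4% for Ex 2, and 19.3% and 5.92% for the ExDSS pair. Of 1407 genes with 100 to 1000 CPM, it was 0.0711% for NC 2, 10.5% for Ex 2, and 0.711% and 0.0711% for the ExDSS pair.

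Adrb3, the adrenergic receptor that starts lipolysis in mouse fat, stood at 0.614 and 1.22 CPM in the NC pair, 5.32 and 7.20 in the PC pair, 13.4 and 0 in the Ex pair, and 0 in both ExDSS libraries. It was at least 21.3-fold lower in ExDSS than in PC (at least 18.1-fold against PC 1 and 24.5-fold against PC 2; edgeR adjusted p = 0.228). Like Plin1 and Lep, it was highest in Ex 1 and without a count in ExDSS 1 and ExDSS 2. Cebpa, a partner of Pparg in adipocyte formation, was at 9.29 to 39.5 CPM outside Ex 2 with fold changes of -0.07, 0.64, -0.31 and 0.87 in the 4 comparisons. Slc2a4, the insulin-responsive glucose transporter, had its highest values in ExDSS 1 and ExDSS 2 (57.6 and 49.0 CPM). None of the 10 genes was called by edgeR in any of the 5 comparisons. For ExDSS against PC, Pparg, Adig and Adrb3 were lower at an unadjusted p under 0.05 by edgeR (16.1% of genes). DESeq2 (10.9% of genes) and limma-voom (7.67%) each called Pparg and Adrb3 there. DESeq2 also called both for ExDSS against Ex (14.6% of genes) and in the interaction (12.2%), where limma-voom called neither.

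Of 19 genes of triglyceride storage and breakdown, medians were small (-0.15 for PC against NC and 0.70 for ExDSS against PC). Plin2, the perilipin of most cell types, was lower in PC than in NC, unlike 9 of the 10 members: it stood at 208 and 633 CPM in the NC pair, 74.7 and 115 in the PC pair, 225 and 2.58 in the Ex pair, and 358 and 660 in the ExDSS pair. PC was lower than NC and ExDSS with no overlap (log2 fold change -2.59, SE 1.54, edgeR adjusted p = 1 against NC). Angptl4, a secreted inhibitor of lipoprotein lipase, stood at 35.9 and 24.6 CPM in the NC pair, 1.18 and 3.75 in the PC pair, 3.18 and 0 in the Ex pair, and 64.4 and 26.8 in the ExDSS pair. Its fold change was -3.83 (SE 1.74, edgeR adjusted p = 1) for PC against NC and 4.79 (SE 1.82, adjusted p = 0.228) for ExDSS against PC. It was high in the libraries with high neutrophil genes and low in the rest. Pck1, which supplies glycerol for triglyceride, ranged from 13.8 to 468 CPM, and Mgll, the last lipase of triglyceride breakdown, from 47.0 to 121 CPM outside Ex 2, where it had no count. edgeR called 0 of 19 in each comparison. At an unadjusted p under 0.05, Plin5, the perilipin of oxidative tissue, was higher and Angptl4 lower in 2 comparisons. These were PC against NC (0.686% of genes higher and 1.81% lower) and Ex against NC (2.89% and 2.42%). Angptl4 was higher and Plin5 lower for ExDSS against PC (2.84% of genes higher and 16.1% lower) and ExDSS against Ex (3.55% and 16.2%). DESeq2 called Angptl4 higher for ExDSS against PC (10.9% of genes called), for ExDSS against Ex (14.6%) and in the interaction (12.2%), and limma-voom called none of the 19.

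The 10 fatty acid synthesis genes were all positive for PC against NC, with a median of 1.67 (7766 of all 14567 genes positive, median 0.10). For Ex against NC, 9 of 10 were positive, with a median of 2.07 (6352 of all 14567 genes, median -0.27). Srebf1 alone had both Ex libraries above both NC libraries (6.72% of all genes). The median of the 10 genes was -1.24 for ExDSS against PC (-0.51 for all genes), where 6 of 10 were lower without overlap (51.9% of all genes). It was -1.03 for ExDSS against Ex (-0.29 for all genes). For the interaction it was -2.89 (-0.58 for all genes), with 0 of 10 positive (6297 of all 14567 genes). Scd1, the stearoyl-CoA desaturase, stood at 11.9 and 18.8 CPM in the NC pair, 101 and 67.9 in the PC pair, 333 and 1.72 in the Ex pair, and 40.4 and 139 in the ExDSS pair. Fasn, fatty acid synthase, stood at 18.8 and 17.9 CPM in the NC pair, 83.4 and 70.4 in the PC pair, 155 and 0.860 in the Ex pair, and 9.22 and 12.9 in the ExDSS pair. Acly, which makes cytosolic acetyl-CoA, stood at 58.7 and 2.60 CPM in the NC pair, 108 and 116 in the PC pair, 142 and 45.6 in the Ex pair, and 46.1 and 41.8 in the ExDSS pair. Both PC libraries exceeded both NC libraries in 8 of the 10 genes (33% of all genes), and again in 8 against NC 1 alone (39.8%). Epithelial cells also make these enzymes, and 9 epithelial genes summed to 6090 and 5940 CPM in NC and 11500 and 8710 CPM in PC. Their part in the difference was not tested. edgeR called 0 of 10 for PC against NC (0% of genes), none with an unadjusted p under 0.05 (0.686% of genes higher and 1.81% lower). There limma-voom called 0 of 10 (0.0137% of genes) and DESeq2 0 of the 9 to which it gave an adjusted p (0.856%). For ExDSS against PC, edgeR called 0 of 10 (0% of genes). Mlxipl, a carbohydrate-responsive transcription factor, was lower there at an unadjusted p under 0.05 (16.1% of genes lower). DESeq2 (10.9% of genes) and limma-voom (7.67%) called Mlxipl lower there. DESeq2 called Srebf1 lower for ExDSS against Ex (14.6% of genes) and in the interaction (12.2%).

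Of 8 genes of brown and beige fat, Ucp1, the defining uncoupling protein, had no count in 6 libraries and at most 0.860 CPM, which is 1 count in Ex 2. Cox7a1, a respiratory chain subunit of muscle and brown fat, stood at 18.1 and 34.6 CPM in the NC pair, 56.6 and 80.2 in the PC pair, 118 and 0 in the Ex pair, and 18.8 and 49.8 in the ExDSS pair. Ppargc1a, a coactivator of mitochondrial genes in many tissues, ranged from 0 in ExDSS 1 to 37.6 CPM in PC 2. Both were higher in PC than in NC without overlap, as were 4 of the 6 tested genes of the list (33% of all genes). Dio2, which activates thyroid hormone in brown fat and elsewhere, stood at 53.2 and 12 CPM in the NC pair, 0.689 and 1.44 in the PC pair, 0.567 and 0 in the Ex pair, and 22.4 and 26.3 in the ExDSS pair. It was low in PC and Ex 1, but not in ExDSS 2, where the members' sum was highest. Its fold change was -4.99 (SE 1.98, edgeR adjusted p = 1) for PC against NC, and DESeq2 called it (0.856% of genes). DESeq2 also called Dio2 in every other comparison, and limma-voom called it for ExDSS against Ex (2.89% of genes) and in the interaction (0.632%). Of the 4 adipokine receptor genes, Adipor1 and Adipor2 had counts in every library, and Adipor2 lay between 92.8 and 132 CPM outside ExDSS, where it had 25.7 and 66.0 CPM. Lepr had at most 15.4 CPM.

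Markers of other cells near gut fat moved in several ways. Fibroblast and progenitor genes summed to 6470 and 4080 CPM in the NC pair, 1730 and 2070 in the PC pair, 2660 and 20.6 in the Ex pair, and 4180 and 8210 in the ExDSS pair, so that NC was above PC. Endothelial genes summed to 156 and 103 CPM in the NC pair, 99.3 and 95.7 in the PC pair, 98.9 and 2.58 in the Ex pair, and 78.8 and 200 in the ExDSS pair. Mesothelial genes summed to 52.2 and 35.1 CPM in the NC pair, 37.6 and 25.7 in the PC pair, 67.6 and 7.74 in the Ex pair, and 40.7 and 80.9 in the ExDSS pair, the highest values being those of Ex 1 and ExDSS 2, as for the adipocyte sum, with counts for 7 of 7 genes in Ex 1 and 4 of 7 in ExDSS 2. Lymph node and B cell genes reached 1330 CPM in ExDSS 2 and 5.16 to 466 CPM elsewhere. Acinar genes were high in NC 2 and ExDSS 1 (96300 and 215000 CPM), where the adipocyte sum was low (71.7 and 189.4 CPM). Islet genes reached 56.5 CPM in ExDSS 1 and skeletal muscle genes 77.5 CPM there. The part of these cells in the members' values was not tested.

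**Figure D5:**
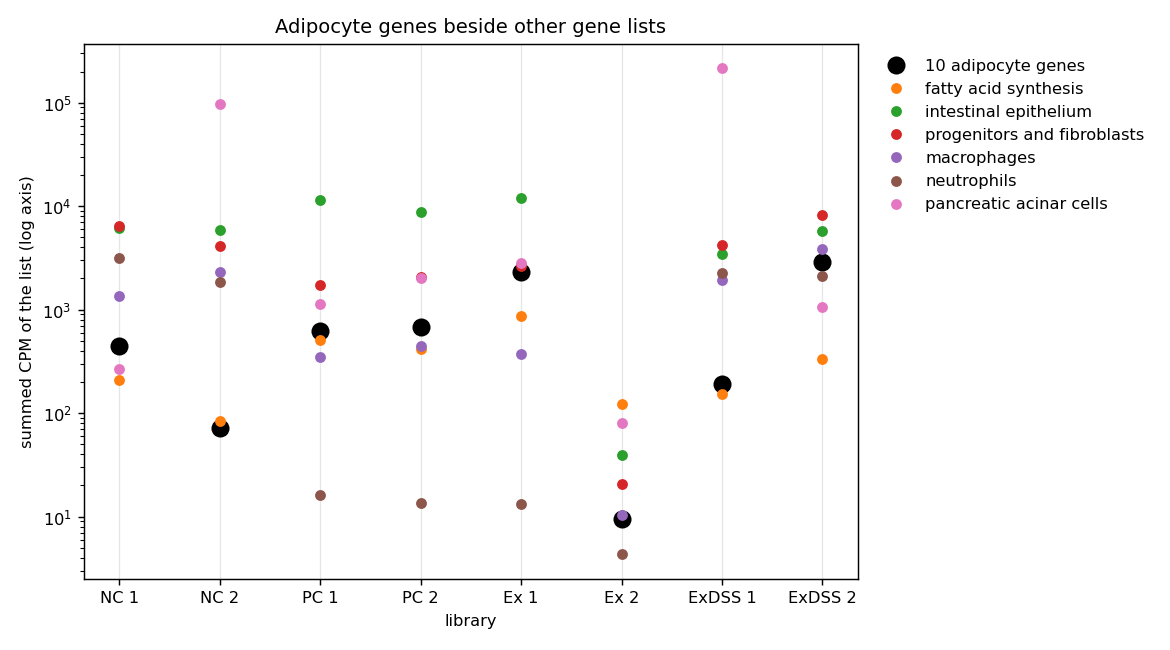
Summed CPM (log axis) of the 10 adipocyte genes (large black points) and of 6 other gene lists in each library. The adipocyte sum is highest in Ex 1 and ExDSS 2, the acinar sum in NC 2 and ExDSS 1, and neutrophil genes are high in the NC and ExDSS libraries.

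The genes whose log2 CPM was most like the members' mean profile over the 8 libraries were S100a10 (Pearson r = 0.96), Nit2 (0.96), Sp3os (0.96), Ppap2b (0.95), Pf4 (0.95), Fhl1 (0.95), Ces2g (0.95), Asb8 (0.95), Sec22a (0.95) and Plac8 (0.94), of 10583 genes with a mean of at least 5 CPM. None of them is in a list of fat genes used here. By Spearman rank correlation, 48 genes tied at or above the rho of the 10th (0.98), and 4 of the genes above were among them (Nit2, Pf4, Ces2g and Sec22a). All points share the low values of Ex 2, NC 2 and ExDSS 1: S100a10 had 57.6, 156.6 and 210.9 CPM there and 539.8 to 1131 CPM in the other 5. Among the members themselves, r with this profile ran from 0.68 for Plin4 to 0.99.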

How the data were processed

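RNA from intestinal tissue was read as 3′ end counts. The deposited table holds raw counts per gene and library, made by the authors with Bowtie2, bedtools and edgeR on build mm9, per the submitters' processing notes, with no versions. The coordinates in the table match GRCm38 for 99.69% of the 22139 names compared, so GRCm38 positions are printed. 27 lines carry a date as name (0.135% of counts). Levels are plain CPM with exact 95% Clopper-Pearson intervals, and ratios to Adipoq have exact conditional binomial intervals. A floor is 3 counts per library. Fold changes came from edgeR 4.0.16 (R 4.3.3), quasi-likelihood F test, TMM scaling, its filter by group, prior count 0.125, all 8 libraries in 1 fit with 4 residual degrees of freedom and Benjamini-Hochberg adjustment over 14567 genes, called at adjusted p under 0.05. Alternatives used DESeq2 1.42.0, limma 3.58.1 and other scalings, filters and libraries. The code was tested on simulated data. The members and lists were chosen with earlier results of these data known. Of each list the 3 genes highest in mean CPM are named, and the 10 genes most like the members by Pearson r of log2 CPM. The summed CPM uses unadjusted library totals.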

Additional observations from a re-analysis of the deposited data

Results flagged for a closer look

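Among the marker lists, 4 neutrophil genes were called in the interaction by edgeR's quasi-likelihood test. That test asks whether the DSS differences without and with exosomes are unequal, not whether the sign changes. Their fold changes were negative for PC against NC and positive for ExDSS against Ex, and edgeR called neither difference by itself. S100a8 stood at 1090 and 674 CPM in the NC pair, 0.394 and 0.768 in the PC pair, 1.25 and 0 in the Ex pair, and 883 and 617 in the ExDSS pair, so its log2 difference was -10.75 for PC against NC and 10.01 for ExDSS against Ex. These differences are of similar size and opposite sign, and the first goes against the labels NC and PC, as said above. The interaction on the log2 scale was 20.75 for S100a8 (SE 2.83, adjusted p = 0.00415), 19.07 for S100a9 (SE 2.71, adjusted p = 0.00415), 12.68 for Retnlg (SE 2.25, adjusted p = 0.0151) and 19.82 for Mmp8 (SE 3.45, adjusted p = 0.0151). Mmp8 had no count in either Ex library and 1 and 4 counts in the PC pair, so its value depends on the prior count and is no bound. With either NC library left out, edgeR called no gene in the interaction (smallest adjusted p = 0.0809 without NC 1 and 0.0719 without NC 2), and 1 gene was called without PC 1. None of the 10 adipocyte genes was called.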

How the results depend on the processing

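With edgeR, no gene was called in the 4 pairwise comparisons and 42 in the interaction. In the order PC against NC, ExDSS against PC, Ex against NC, ExDSS against Ex and the interaction, DESeq2 called 86, 1526, 337, 2046 and 1672 genes, limma-voom 2, 1118, 0, 421 and 92, and edgeR with no filter 45, 132, 55, 223 and 350. The interaction gave 67 calls with RLE size factors, 6 with total counts and 18 with a filter of 5 CPM in 2 libraries. With the replicate block the counts were 0, 41, 0, 28 and 161. The numbers did not pair the libraries (r from -0.149 to 0.0506, none of 6 over 0.1). Leaving out NC 2, Ex 2 and ExDSS 1 together, a choice made after seeing the data, gave 3910, 10719, 3603, 9839 and 9646 calls, with the spread taken from the PC pair alone. Leaving out 1 library at a time gave 0 to 4, 0 to 6, 0 to 1596, 0 to 1883 and 0 to 1663 calls, the last 3 maxima without Ex 1, where Ex 2 is assumed to vary like the other groups.

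The members' median ran from 0.91 to 3.79 for PC against NC, from -4.16 to 1.08 for ExDSS against PC, from -4.65 to 4.87 for Ex against NC, from -5.76 to 7.10 for ExDSS against Ex and from -7.33 to 5.35 for the interaction when 1 library was left out. With limma-voom it was -1.56 for ExDSS against PC. Over 19 settings, 57 of 940 member values (counting Plin1 and Lep where they went to 0) and 5 medians changed sign. The cause was not tested. Without acinar genes and Rn45s in the library total, the summed level was 464.5 and 79.65 CPM in the NC pair, 668.7 and 767.9 in the PC pair, 2668 and 20.33 in the Ex pair, and 244 and 2898 in the ExDSS pair. In Ex 2, depth allows no statement on a gene below 3.17 CPM, the exact 95% upper limit for a count of 0.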
